A study of Mus musculus with 12 samples.

Results

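The 8 genes described here carry out or control lipolysis, the release of fatty acids and glycerol from stored triglyceride. They were taken by symbol from a table of 24341 genes measured by RNA sequencing in cultured mouse fat cells, and all 8 were found. They are the lipases Pnpla2, Lipe and Mgll, the lipase partners Abhd5 and G0s2, the receptor Adrb3, the phosphodiesterase Pde3b and the glycerol channel Aqp7. The cells were C57Bl/6 preadipocytes from adipose tissue, immortalised with SV40 in every group. There were 12 libraries in 4 groups of 3, namely Acly-/- adipocytes (day 4), Aclyf/f adipocytes (day 4), Acly-/- preadipocytes (day 0) and Aclyf/f preadipocytes (day 0). Adipocytes of both genotypes had received an adipogenic cocktail with rosiglitazone, an agonist of PPARgamma, 4 days before harvest. Acly encodes ATP citrate lyase, which makes acetyl-CoA from citrate in the cytosol and nucleus, and Aclyf/f cells carry the gene flanked by loxP sites. How Acly was deleted, and whether the libraries of a group are separate cultures, clones or animals, is not stated in the labels, so p-values measure only the spread between these libraries.

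In an adipocyte, catecholamines act on beta-adrenergic receptors, of which Adrb3 is the form typical of rodent fat, and raise cAMP. cAMP activates protein kinase A, which phosphorylates the droplet coat protein perilipin 1 and hormone-sensitive lipase. Adipose triglyceride lipase (Pnpla2) removes the first fatty acid, hormone-sensitive lipase (Lipe) the next and monoglyceride lipase (Mgll) the last. ABHD5, also called CGI-58, activates adipose triglyceride lipase and G0S2 inhibits it. Insulin opposes the pathway in part through PDE3B, which degrades cAMP, and AQP7 lets glycerol leave the cell.

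Levels are FPKM, fragments scaled to transcript length and to the mapped fragments of the library, so they can be compared between genes of different length. Acly itself averaged 12.4 ± 1.17 FPKM in Acly-/- adipocytes, 754 ± 52.5 FPKM in Aclyf/f adipocytes, 12.1 ± 0.309 FPKM in Acly-/- preadipocytes and 86.9 ± 2.33 FPKM in Aclyf/f preadipocytes (SD, n = 3 each). The table holds no counts, and depths estimated from the spacing of its lowest values ran between 7140000 and 13780000 fragments per library. Of the adipocyte markers, Adipoq averaged 60.7 FPKM in Acly-/- adipocytes and 544 FPKM in Aclyf/f adipocytes, while Pparg averaged 148 FPKM in Acly-/- adipocytes and 161 FPKM in Aclyf/f adipocytes. Lep, the leptin gene, sat at the table's floor of 0.01 FPKM in every library. Markers of brown adipocytes, endothelium, mesothelium and epithelium summed to at most 2.64, 1.67 and 0.212 FPKM in any library, and the 4 skeletal muscle markers were at the floor throughout.

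The genes lie on 6 chromosomes of mouse build mm10, with positions counted from 1. Pnpla2 spans chr7:141455188-141460743 on the plus strand, Mgll chr6:88724412-88828360 on the plus strand, Abhd5 chr9:122351616-122381523 on the plus strand and Pde3b chr7:114415254-114537937 on the plus strand. On the minus strand lie G0s2 (chr1:193272160-193273188), Adrb3 (chr8:27225776-27229588) and Aqp7 (chr4:41033074-41048136). The table gives Lipe a locus that it shares with 4 other genes, and GENCODE places Lipe itself at chr7:25379527-25398710 on the minus strand. Genes on the opposite strand overlap Lipe, Mgll, Abhd5, G0s2 and Adrb3 in GENCODE. Whether reads were assigned by strand is not stated, so reads of each pair cannot be told apart. The antisense gene at Lipe, 4732471J01Rik, was listed at 0.729, 0.467 and 0.452 FPKM in Acly-/- adipocytes, against 1.83, 2.44 and 1.91 FPKM in Aclyf/f adipocytes, and Lamb3, within which G0s2 lies, had 3.85 to 4.05 FPKM in Acly-/- adipocytes and 5.09 to 5.46 FPKM in Aclyf/f adipocytes.

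The 250 bases before the annotated start are shown for the lipases and lipase partners, since these genes separated into members that differed between the adipocyte groups (Pnpla2, Lipe, Mgll) and members that did not pass the test (Abhd5, G0s2). The sequences are RefSeq's for build GRCm38.p6 (mm10), read 5′ to 3′ on the strand of the gene. Capitals mark matches on either strand to CACGTG (the E-box bound by basic helix-loop-helix factors such as USF), AGGTCA (the hexamer bound by nuclear receptors) and GGGCGG (the GC box bound by SP1). The windows are chr7:141454938-141455187 for Pnpla2, chr7:25395988-25396237 for Lipe, chr6:88724162-88724411 for Mgll, chr9:122351366-122351615 for Abhd5 and chr1:193273189-193273438 for G0s2.
Pnpla2: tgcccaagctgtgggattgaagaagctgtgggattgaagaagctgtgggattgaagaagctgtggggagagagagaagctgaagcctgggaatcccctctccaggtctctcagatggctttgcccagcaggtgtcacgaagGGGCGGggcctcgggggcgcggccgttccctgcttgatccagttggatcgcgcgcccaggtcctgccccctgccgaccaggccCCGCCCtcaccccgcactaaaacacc
Lipe: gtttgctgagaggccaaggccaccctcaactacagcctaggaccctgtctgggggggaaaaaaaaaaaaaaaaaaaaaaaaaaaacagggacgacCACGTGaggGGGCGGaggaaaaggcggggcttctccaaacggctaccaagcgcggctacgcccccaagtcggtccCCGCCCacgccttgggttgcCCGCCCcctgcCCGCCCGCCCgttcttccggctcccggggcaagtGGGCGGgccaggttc
Mgll: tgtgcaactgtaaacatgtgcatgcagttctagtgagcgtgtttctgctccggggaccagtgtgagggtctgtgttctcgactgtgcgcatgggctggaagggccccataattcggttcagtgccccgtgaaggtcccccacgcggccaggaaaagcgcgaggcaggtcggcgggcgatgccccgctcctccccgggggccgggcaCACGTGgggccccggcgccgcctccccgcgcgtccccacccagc
Abhd5: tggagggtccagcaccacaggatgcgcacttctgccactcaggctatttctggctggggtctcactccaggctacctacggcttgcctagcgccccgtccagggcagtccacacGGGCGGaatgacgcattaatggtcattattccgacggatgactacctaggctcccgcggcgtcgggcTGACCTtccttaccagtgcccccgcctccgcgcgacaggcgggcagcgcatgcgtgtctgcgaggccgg
G0s2: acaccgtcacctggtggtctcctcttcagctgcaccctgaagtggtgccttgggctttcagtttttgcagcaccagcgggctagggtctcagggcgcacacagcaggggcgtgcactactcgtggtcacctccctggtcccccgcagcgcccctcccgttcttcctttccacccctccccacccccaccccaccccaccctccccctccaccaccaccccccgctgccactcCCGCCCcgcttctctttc

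Each of these 5 windows held a match, but the share of all windows that hold any of these motifs was not computed. Lipe and Mgll each have a second window, described below, and the one printed is that with an E-box. Nothing is read from the count of 5. The Lipe window held 1 E-box and 6 GC boxes, some of which overlap each other, and the Mgll window held 1 E-box. GC boxes also stood in the windows of Pnpla2 (2 matches), Abhd5 (1) and G0s2 (1), and the Abhd5 window held 1 AGGTCA. A second annotated start of Lipe, with its window at chr7:25390113-25390362, held no match, the second Mgll window, chr6:88724454-88724703, held 1 GC box and no E-box, and the Aqp7 windows held 2 and 1 AGGTCA. None of the 9 windows found for 6 members held TGACGTCA, the full cAMP response element. Over 32851 windows of the same length, an E-box was present in 6.02%, AGGTCA in 14%, a GC box in 32.7% and TGACGTCA in 1.55%. A match is a run of letters only, and binding was not measured.

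Loss of Acly in adipocytes went with lower RNA of all 3 lipases, of Adrb3 and of Pde3b, while Abhd5, G0s2 and Aqp7 did not pass the test in either direction. Genes were called at an adjusted p under 0.05 in limma on log2(FPKM + 1), adjusted by Benjamini-Hochberg over the 11777 genes that reached 1 FPKM in 3 or more libraries. All 8 members were among these, Mgll and Adrb3 through their 6 adipocyte libraries alone, and G0s2 and Aqp7 through these and 1 Acly-/- preadipocyte library. In the comparison of Acly-/- with Aclyf/f adipocytes, 5 of 8 members were lower, beside 29.2% of all genes tested, and 0 of 8 were higher, beside 25.6%. The libraries of these 5 members did not overlap between the groups, all lying lower in Acly-/- adipocytes, as they did for 33.7% of all genes tested. The median log2 fold change was -1.29 over the 8 members and -0.02 over all genes tested. Of all calls in this comparison 46.7% were rises, or 36.4% once libraries were rescaled to the same FPKM sum, which moved the median of all genes to -0.09. Bulk RNA does not tell fewer cells that express a gene from less RNA per cell.

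**Figure D1:**
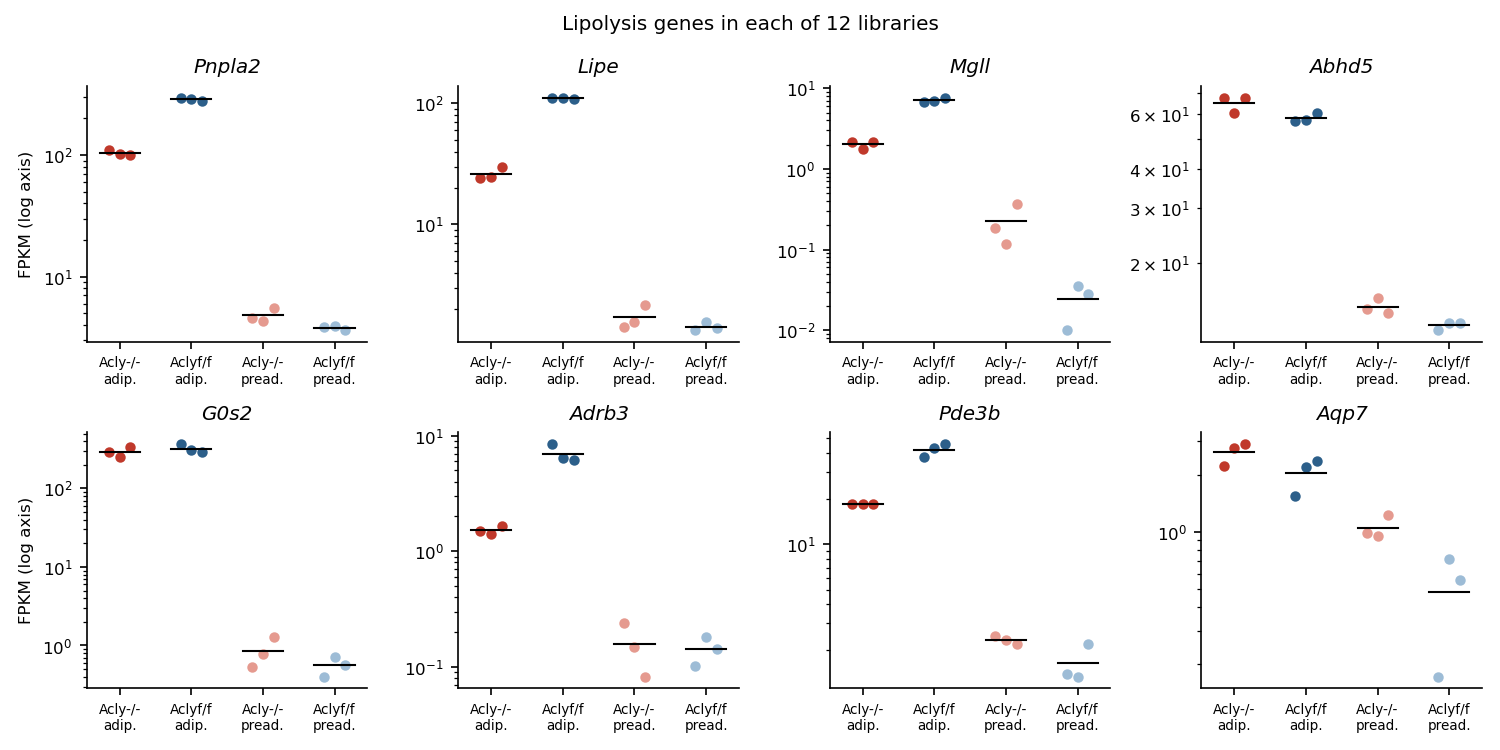
FPKM of the 8 lipolysis genes in each of the 12 libraries, 1 panel per gene on a log axis, with 1 point per library and a bar at the group mean. In the panels of Pnpla2, Lipe, Mgll, Adrb3 and Pde3b the Acly-/- adipocyte points lie below all Aclyf/f adipocyte points, while those of Abhd5, G0s2 and Aqp7 overlap them.

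Pnpla2, adipose triglyceride lipase, had 111, 103 and 99.4 FPKM in Acly-/- adipocytes, against 297, 287 and 280.1 FPKM in Aclyf/f adipocytes. The groups did not overlap, and the Aclyf/f mean was 2.76-fold the Acly-/- mean (log2 fold change -1.46, SE 0.08, limma adjusted p = 8.86e-09). Preadipocytes held far less of it, with 4.59, 4.29 and 5.53 FPKM in Acly-/- preadipocytes and 3.82, 3.94 and 3.62 FPKM in Aclyf/f preadipocytes. In adipocytes of both genotypes it was the most abundant of the 3 lipases.

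Lipe, hormone-sensitive lipase, had 24.2, 24.8 and 29.7 FPKM in Acly-/- adipocytes, against 112, 110.4 and 109 FPKM in Aclyf/f adipocytes. It had the most negative log2 fold change of the 8 members, -2.04 (SE 0.10, limma adjusted p = 3.85e-09), a 4.20-fold difference of means with no overlap. Only 0.671% of all genes tested had a lower log2 fold change. Preadipocyte libraries of both genotypes lay close together, at 1.43, 1.55 and 2.14 FPKM in Acly-/- preadipocytes and 1.34, 1.56 and 1.40 FPKM in Aclyf/f preadipocytes.

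Mgll, monoglyceride lipase, was the least abundant of the lipases. It had 2.15, 1.75 and 2.13 FPKM in Acly-/- adipocytes, against 6.75, 6.90 and 7.65 FPKM in Aclyf/f adipocytes, a 3.53-fold difference of means without overlap (log2 fold change -1.43, SE 0.10, limma adjusted p = 8.11e-08). Preadipocyte values were 0.185, 0.116 and 0.369 FPKM in Acly-/- cells and 0.01, 0.0355 and 0.0278 FPKM in Aclyf/f cells. The preadipocyte values rest on an estimated 3 to 20 fragments in Acly-/- libraries and 0 to 1 in Aclyf/f libraries, so no fold is given for them.

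The receptor Adrb3 had 1.5, 1.42 and 1.64 FPKM in Acly-/- adipocytes, against 8.46, 6.37 and 6.22 FPKM in Aclyf/f adipocytes. The groups did not overlap, and the means differed 4.62-fold (log2 fold change -1.66, SE 0.11, limma adjusted p = 5.25e-08). Its preadipocyte values, 0.238, 0.149 and 0.0821 FPKM in Acly-/- cells and 0.102, 0.183 and 0.143 FPKM in Aclyf/f cells, overlapped and rest on 2 to 7 estimated fragments per library. The gene was thus listed near the limit of detection before differentiation in both genotypes.

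Pde3b, which opposes the receptor by degrading cAMP, was lower as well. It had 18.4, 18.4 and 18.4 FPKM in Acly-/- adipocytes, against 37.4, 43.2 and 45.7 FPKM in Aclyf/f adipocytes (log2 fold change -1.15, SE 0.11, limma adjusted p = 1.99e-06). The Acly-/- libraries were nearly identical, all 3 lay below every Aclyf/f library, and the means differed 2.29-fold. Acly-/- preadipocytes had 2.46, 2.33 and 2.18 FPKM and Aclyf/f preadipocytes 1.39, 1.33 and 2.18 FPKM.

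Abhd5, the activator of adipose triglyceride lipase, had 67.8, 60.5 and 67.7 FPKM in Acly-/- adipocytes, against 57.1, 57.7 and 60.6 FPKM in Aclyf/f adipocytes. The 2 groups overlapped at a single library, and the log2 fold change of 0.16 (SE 0.07) did not pass the test (limma adjusted p = 0.0748). It passed after quantile normalization (adjusted p = 0.0223) and without Acly-/- adipocyte library 2 (0.0345), each time as higher in Acly-/- adipocytes. Abhd5 was also the member with the highest level before differentiation, at 14.2, 15.4 and 13.8 FPKM in Acly-/- preadipocytes and 12.2, 12.9 and 12.9 FPKM in Aclyf/f preadipocytes.

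G0s2, the inhibitor of adipose triglyceride lipase, was the most abundant member in adipocytes of both genotypes. It had 295, 250.1 and 333 FPKM in Acly-/- adipocytes, against 367, 306 and 288 FPKM in Aclyf/f adipocytes, so that the groups overlapped (log2 fold change -0.13, SE 0.15, limma adjusted p = 0.474). Acly-/- preadipocytes had 0.529, 0.771 and 1.28 FPKM and Aclyf/f preadipocytes 0.40, 0.720 and 0.568 FPKM, from 2 to 15 estimated fragments per library. Aqp7 had 2.21, 2.76 and 2.90 FPKM in Acly-/- adipocytes, against 1.55, 2.19 and 2.35 FPKM in Aclyf/f adipocytes, which also overlapped (log2 fold change 0.26, SE 0.15, limma adjusted p = 0.151).

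**Figure D2:**
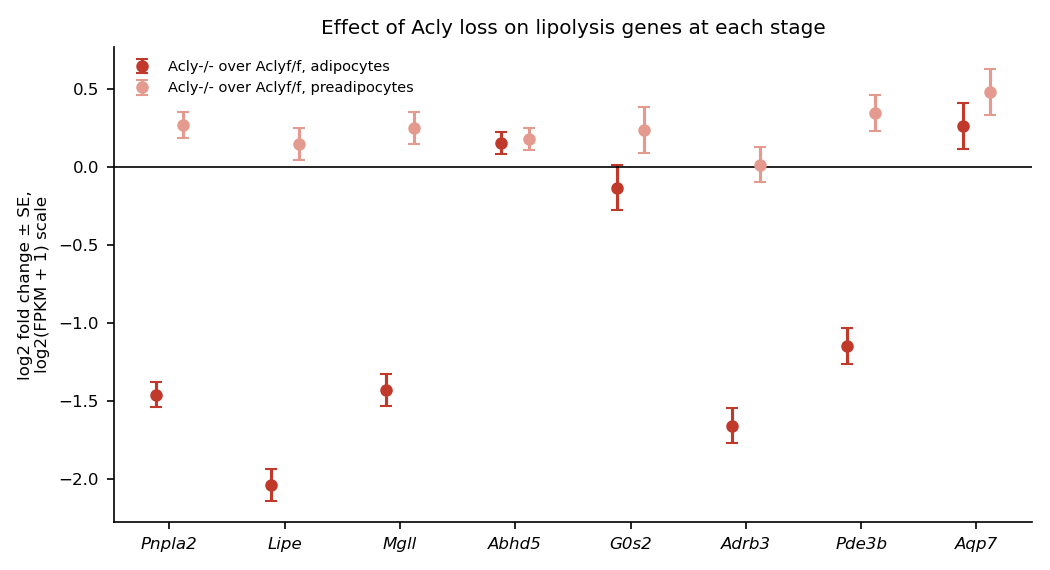
Log2 fold change of the 8 genes with Acly loss (Acly-/- over Aclyf/f, log2(FPKM + 1) scale), in adipocytes and in preadipocytes, with bars of 1 SE. In adipocytes Lipe lies lowest at -2.04, followed by Adrb3 at -1.66, Pnpla2 at -1.46, Mgll at -1.43 and Pde3b at -1.15, and in preadipocytes every value is between 0.02 and 0.48.

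The adipocyte libraries that were lower in these genes also differed in cell type markers. The summed level of 9 adipocyte markers was 6641 to 8229.8 FPKM in Acly-/- adipocytes and 11909.9 to 12546 FPKM in Aclyf/f adipocytes, and 7 of the 8 tested were lower in Acly-/- adipocytes, Pparg being the exception (limma adjusted p = 0.208). Fabp4 made up most of the adipocyte sum, with 6113 FPKM in Acly-/- adipocytes and 8835 FPKM in Aclyf/f adipocytes. Single markers differed from it in size. Retn averaged 48.8 FPKM in Acly-/- adipocytes and 844 FPKM in Aclyf/f adipocytes, Cfd 18.6 and 272 FPKM, and Lpl 984 and 1163 FPKM. The summed level of 6 preadipocyte markers was 692 to 738 FPKM in Acly-/- adipocytes and 134 to 199 FPKM in Aclyf/f adipocytes, with all 3 that were tested higher. Most of that sum was Ly6a, with 649 FPKM in Acly-/- adipocytes and 128 FPKM in Aclyf/f adipocytes. Pdgfra averaged 30.3 FPKM in Acly-/- adipocytes and 15.5 FPKM in Aclyf/f adipocytes, and Pdgfrb 34.6 FPKM in Acly-/- adipocytes and 12.4 FPKM in Aclyf/f adipocytes. Cd34, which was not tested, went the other way, with 0.398 FPKM in Acly-/- adipocytes and 1.08 FPKM in Aclyf/f adipocytes and no overlap. Markers of smooth muscle and pericytes summed to 2.94 to 3.50 FPKM in Acly-/- adipocytes and 6.61 to 7.71 FPKM in Aclyf/f adipocytes. Nearly all of it was Myh11, with 3.14 FPKM in Acly-/- adipocytes and 6.96 FPKM in Aclyf/f adipocytes, while the pericyte markers Cspg4 and Rgs5 were under 0.3 FPKM in every adipocyte library. The 9 macrophage and leukocyte markers summed to 30.6 to 36.3 FPKM in Acly-/- adipocytes and 2.51 to 3.52 FPKM in Aclyf/f adipocytes. Nearly all of that sum was Cd68, a lysosomal protein gene, with 32.6 FPKM in Acly-/- adipocytes and 1.5 FPKM in Aclyf/f adipocytes, while Ptprc, the pan-leukocyte gene, was at the floor in all libraries of both groups. The part of the adipocyte, preadipocyte and smooth muscle markers in the differences of the 5 genes was not tested.

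Ratios between members within a library, which no rescaling of the library can change, restate the differences of the single genes above, and their p-values are no further evidence. The FPKM ratio of G0s2 to Pnpla2 was 2.67, 2.44 and 3.35 in Acly-/- adipocytes, against 1.23, 1.06 and 1.03 in Aclyf/f adipocytes. All Acly-/- libraries were above all Aclyf/f libraries, with a 2.53-fold difference of geometric means. The 2-sided exact permutation p was 0.1, the smallest that 3 against 3 libraries can give, and 0.156 after Benjamini-Hochberg adjustment over the 14 ratio comparisons made. In preadipocytes the ratio was 0.175 ± 0.0580 in Acly-/- cells and 0.148 ± 0.0397 in Aclyf/f cells (SD, n = 3 each), with overlap and an exact permutation p of 0.6 (adjusted 0.646).

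The ratio of Abhd5 to Pnpla2 was 0.612, 0.590 and 0.681 in Acly-/- adipocytes, against 0.192, 0.201 and 0.216 in Aclyf/f adipocytes, a 3.09-fold difference without overlap (exact permutation p = 0.1, adjusted 0.156). The ratio of Lipe to Pnpla2 was 0.219, 0.242 and 0.299 in Acly-/- adipocytes, against 0.376, 0.384 and 0.389 in Aclyf/f adipocytes, so Lipe was lower by more than Pnpla2 in every Acly-/- library (1.53-fold, exact permutation p = 0.1, adjusted 0.156). Across differentiation of Aclyf/f cells the ratio of Lipe to Pnpla2 was 0.383 ± 0.00679 in adipocytes and 0.377 ± 0.0241 in preadipocytes (SD, n = 3 each), and the groups overlapped (exact permutation p = 0.9, adjusted 0.9). The same ratio was 0.253 ± 0.0414 in Acly-/- adipocytes and 0.353 ± 0.0382 in Acly-/- preadipocytes, without overlap (exact permutation p = 0.1, adjusted 0.156). The ratio of Mgll to Lipe differed 1.19-fold between the adipocyte groups, at 0.0770 ± 0.0102 in Acly-/- cells and 0.0643 ± 0.00510 in Aclyf/f cells (exact permutation p = 0.1, adjusted 0.156).

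**Figure D3:**
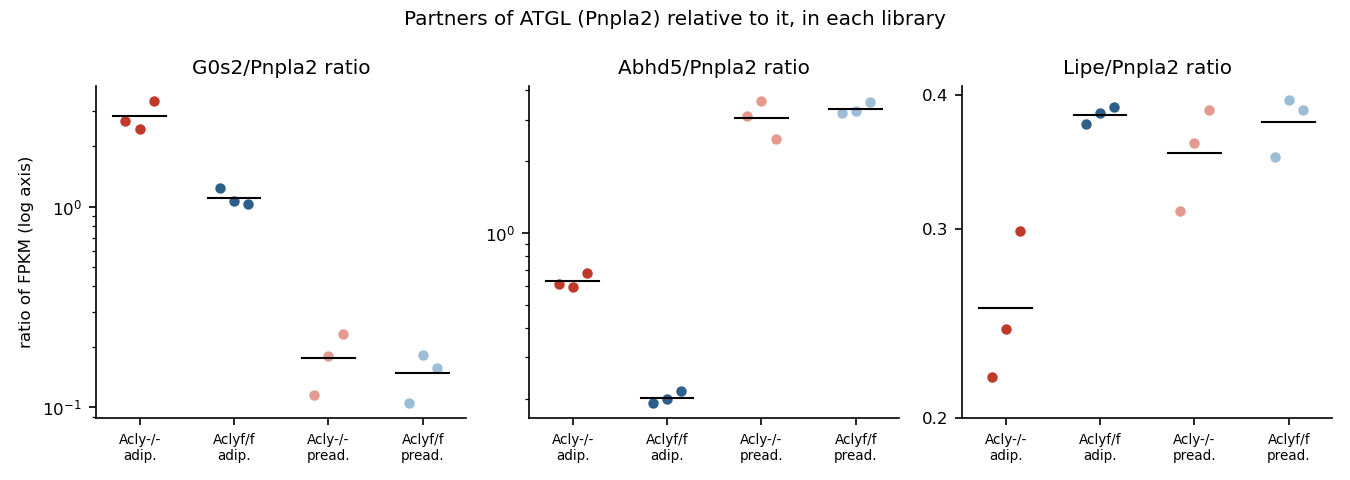
Ratio of FPKM between pairs of lipolysis genes within each library, on a log axis, with 1 point per library and a bar at the group mean. The ratios of G0s2 to Pnpla2 and of Abhd5 to Pnpla2 are higher in each Acly-/- adipocyte library than in any Aclyf/f adipocyte library, and the ratio of Lipe to Pnpla2 is lower.

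All 8 genes had higher levels in adipocytes than in preadipocytes of both genotypes. The 4 members that reached 1 FPKM in all 12 libraries (Pnpla2, Lipe, Abhd5 and Pde3b) were higher past the threshold in Acly-/- cells, beside 30.4% of all genes tested, and in Aclyf/f cells, beside 36.5%. The other 4 entered the test through the adipocyte stage, where they are high (Mgll and Adrb3 wholly, G0s2 and Aqp7 but for 1 library), so their differences with differentiation are a description and nothing is read from the count of 8. For Pnpla2, Lipe, Abhd5 and Pde3b, adjusted p-values from limma were at most 3.69e-10 in Acly-/- cells and at most 6.61e-12 in Aclyf/f cells. G0s2 had the highest log2 fold change in each, 7.31 in Acly-/- cells and 7.68 in Aclyf/f cells, and Aqp7 the lowest, 0.82 in Acly-/- cells and 1.04 in Aclyf/f cells. Both stages of Aqp7 were low, with 50 to 78 estimated fragments in Acly-/- adipocytes, 42 to 76 in Aclyf/f adipocytes, 17 to 41 in Acly-/- preadipocytes and 3 to 14 in Aclyf/f preadipocytes.

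The size of the rise differed between genotypes for the same 5 genes that were lower in Acly-/- adipocytes, and these values share the adipocyte libraries with the comparison above. Pnpla2 was 21.7-fold higher in adipocytes than in preadipocytes of Acly-/- cells, and 76.0-fold higher in Aclyf/f cells. For Lipe the folds were 15.4 in Acly-/- cells and 77.1 in Aclyf/f cells, and for Pde3b they were 7.92 in Acly-/- cells and 25.8 in Aclyf/f cells. Abhd5 rose 4.51-fold in Acly-/- cells and 4.62-fold in Aclyf/f cells.

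The difference between the 2 rises was tested as an interaction, the rise in Acly-/- cells minus the rise in Aclyf/f cells. It was negative past the threshold for 5 of 8 members, beside 26.4% of all genes tested, with log2 differences of -2.18 for Lipe (SE 0.15, limma adjusted p = 9.63e-08), -1.73 for Pnpla2 (SE 0.12, 8.89e-08), -1.68 for Mgll (SE 0.14, 7.77e-07), -1.68 for Adrb3 (SE 0.16, 1.96e-06) and -1.50 for Pde3b (SE 0.16, 6.44e-06). Mgll and Adrb3 entered the test through adipocyte libraries alone and were near the limit of detection in preadipocytes. Their interaction values mostly repeat the adipocyte difference, so nothing is read from the count of 5. Abhd5 (-0.02, SE 0.10, adjusted p = 0.854), G0s2 (-0.37, SE 0.21, 0.159) and Aqp7 (-0.22, SE 0.21, 0.40) did not pass. The sign of the Abhd5 value changed to 0.0206 after quantile normalization, and to 0.0295, 0.00162, 0.0186 and 7.18e-05 without Acly-/- adipocyte library 2, Aclyf/f adipocyte library 3, Acly-/- preadipocyte library 2 and Aclyf/f preadipocyte library 1 in turn. On the FPKM scale, the rise in Acly-/- cells was 19.8% of that in Aclyf/f cells for Adrb3, 22.5% for Lipe, 25.3% for Mgll, 35.0% for Pnpla2 and 39.7% for Pde3b. It was 91.3% for G0s2, 102% for Aqp7 and 111% for Abhd5. Leaving out any 1 library kept the first 5 between 18.7% and 41.6% and the other 3 between 85.0% and 116%.

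**Figure D4:**
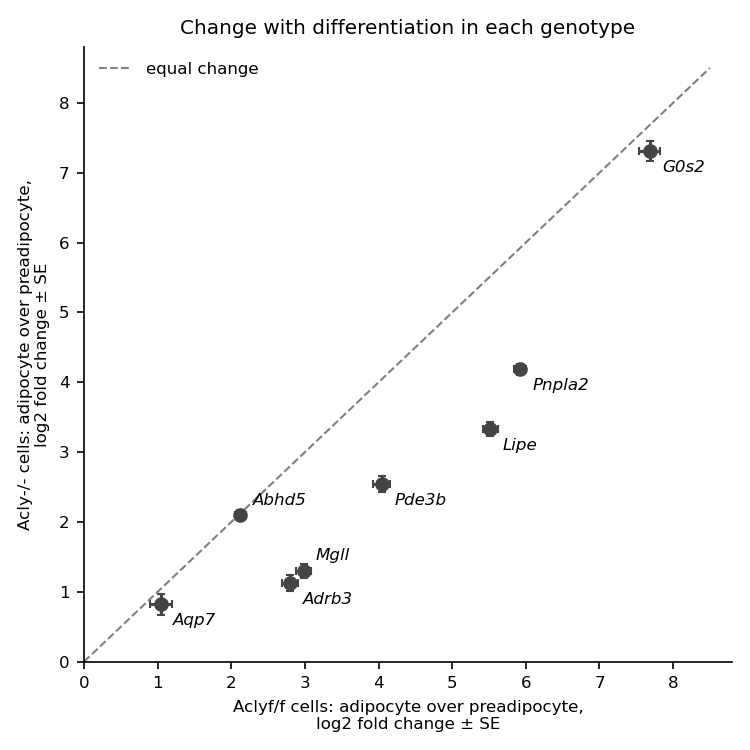
Log2 fold change of the 8 genes with differentiation (adipocyte over preadipocyte, log2(FPKM + 1) scale) in Acly-/- cells on the vertical axis and in Aclyf/f cells on the horizontal axis, with bars of 1 SE and a dashed line of equal change. Points below the line rose less in Acly-/- cells, so that for Lipe the value is 3.33 in Acly-/- cells and 5.52 in Aclyf/f cells, while for Abhd5 it is 2.10 in Acly-/- cells and 2.12 in Aclyf/f cells.

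In preadipocytes loss of Acly went with higher RNA of 3 members. Pnpla2 (log2 fold change 0.27, SE 0.08, limma adjusted p = 0.0165), Pde3b (0.35, SE 0.11, 0.0253) and Aqp7 (0.48, SE 0.15, 0.0184) were higher in Acly-/- than in Aclyf/f preadipocytes, 3 of 8 members beside 19.7% of all genes tested. None of the 8 was lower, beside 22.4%. Mgll, Adrb3, G0s2 and Aqp7 were under 1 FPKM in every Aclyf/f preadipocyte library. They could hardly be called lower on this scale, so nothing is read from that count. The 5 members without a call had limma adjusted p of 0.0532 to 0.927, and 2 of them, Abhd5 and Mgll, had an unadjusted p under 0.05. Of all calls in preadipocytes 46.8% were rises, or 34.5% after rescaling to the same FPKM sum. Aqp7 had 0.984, 0.944 and 1.22 FPKM in Acly-/- preadipocytes, against 0.171, 0.713 and 0.559 FPKM in Aclyf/f preadipocytes, without overlap and from few fragments. Libraries of 4 members (Pnpla2, Mgll, Abhd5 and Aqp7) lay higher in Acly-/- preadipocytes without overlap, as did those of 23.2% of all genes tested. For Pde3b, Aclyf/f library 3 equalled the lowest Acly-/- library within 0.01 FPKM. These calls were not firm. Pnpla2 lost its call without Acly-/- preadipocyte library 3 (adjusted p = 0.0578) or Aclyf/f preadipocyte library 3 (0.0602), or once libraries were rescaled to 1 common FPKM sum (0.0586) or with only the groups of the contrast in the fit (0.0824). Pde3b lost it without Acly-/- preadipocyte library 1 (0.0691) or 2 (0.0559), and without Aclyf/f preadipocyte library 1 (0.0901) or 2 (0.107). Pde3b lost it also with no filter on low values (0.0759), after rescaling to 1 sum (0.104) and with only the groups of the contrast (0.0758). Aqp7 lost it without Acly-/- preadipocyte library 3 (0.0665) or Aclyf/f preadipocyte library 1 (0.0819), and with no filter on low values (0.0698). Abhd5 gained a call without Acly-/- adipocyte library 2 (0.0479) or Acly-/- preadipocyte library 3 (0.0404), and Mgll without Acly-/- preadipocyte library 2 (0.0393). Abhd5 gained it also with log2(FPKM + 0.1) (0.0463), log2(FPKM + 0.5) (0.0496), no filter (0.0481), quantile normalization (0.0450) and median-of-ratios rescaling (0.0453). The Mgll call depends on the pseudocount, with gains at log2(FPKM + 0.1) (0.00132) and log2(FPKM + 0.5) (0.0208).

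Other genes of the pathway were read from lists, and their counts can be set beside the 29.2% of all genes lower and 25.6% higher in Acly-/- adipocytes. Of 8 receptors that raise cAMP, 3 passed the filter on low values, which is too few for a count to be read. Part of them passed through the group where they are high, so that a difference was built into their choice. Mc2r, the receptor for ACTH, had 1.56, 0.722 and 1.06 FPKM in Acly-/- adipocytes, against 11.2, 12.3 and 11.9 FPKM in Aclyf/f adipocytes (log2 fold change -2.62, limma adjusted p = 1.82e-09), and it passed the filter through 5 adipocyte libraries, 2 of them Acly-/-. Mc5r, another melanocortin receptor, averaged 0.702 FPKM in Acly-/- adipocytes and 8.0 FPKM in Aclyf/f adipocytes. It passed through the 3 Aclyf/f adipocyte libraries alone, so these values are given as a description. Adrb1 was below the filter.

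Of 9 receptors that lower cAMP, 4 passed the filter. Ffar2 did so through the 3 Aclyf/f adipocyte libraries alone, and the other 3 were lower in Acly-/- adipocytes. The adenosine A1 receptor Adora1 had 1.88, 1.61 and 1.80 FPKM in Acly-/- adipocytes, against 11.0, 9.85 and 9.58 FPKM in Aclyf/f adipocytes (log2 fold change -2.01, limma adjusted p = 8.34e-10). Ffar2, a receptor for short-chain fatty acids, averaged 0.0677 FPKM in Acly-/- adipocytes and 2.84 FPKM in Aclyf/f adipocytes, again a description. Hcar2, the niacin receptor, averaged 0.803 FPKM in Acly-/- adipocytes and 2.75 FPKM in Aclyf/f adipocytes (-1.05, limma adjusted p = 2.15e-05), and the lactate receptor Hcar1 averaged 1.07 FPKM in Acly-/- adipocytes and 1.69 FPKM in Aclyf/f adipocytes (-0.38, 0.00987). Adra2a was below the filter.

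Signalling below the receptors was mixed. Of 20 genes for G proteins, adenylyl cyclases and protein kinase A, 14 were tested, with 6 higher, 3 lower and 5 not called in Acly-/- adipocytes and a median log2 fold change of -0.02. The catalytic subunit gene Prkaca averaged 55.3 FPKM in Acly-/- adipocytes and 99.6 FPKM in Aclyf/f adipocytes (-0.84, limma adjusted p = 5.22e-07), while its paralogue Prkacb did not pass (-0.08, 0.431). Adcy7 averaged 1.16 FPKM in Acly-/- adipocytes and 0.214 FPKM in Aclyf/f adipocytes (0.83, 2.47e-05). Adcy3 averaged 5.62 FPKM in Acly-/- adipocytes and 3.52 FPKM in Aclyf/f adipocytes (0.55, 0.000217), and Adcy6 did not pass (-0.02, 0.849). The regulatory subunit gene Prkar2b averaged 121 FPKM in Acly-/- adipocytes and 93.7 FPKM in Aclyf/f adipocytes (0.37, 0.00672), and Gnas, the stimulatory G protein, averaged 589 FPKM in Acly-/- adipocytes and 502 FPKM in Aclyf/f adipocytes (0.23, 0.00888). Gnai3, an inhibitory G protein, was higher as well (0.33, 0.0138). Rescaling to the same FPKM sum ended the calls of Prkar2b (0.0834), Gnas (0.0600) and Gnai3 (0.129), which left 3 genes higher in place of 6. Gnai3 also lost its call with no filter on low values (0.0550) and without Aclyf/f adipocyte library 1 (0.0653), and quantile normalization that of Gnas (0.0968).

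Of the other phosphodiesterases with Abhd15, 10 of 15 were tested, and 6 were lower, 1 higher and 3 not called in Acly-/- adipocytes (median log2 fold change -0.29). In Acly-/- preadipocytes 7 were lower, 1 higher and 2 not called (median -0.36), beside 22.4% of all genes lower and 19.7% higher. Abhd15, whose product is known to bind PDE3B and is needed for its stability in mouse fat cells, averaged 15.6 FPKM in Acly-/- adipocytes and 26.6 FPKM in Aclyf/f adipocytes (-0.74, limma adjusted p = 6.47e-06). In preadipocytes Abhd15 was instead higher, with 3.46 FPKM in Acly-/- cells and 1.35 FPKM in Aclyf/f cells (0.92, 1.52e-06), so that its interaction was -1.66 (1.53e-07). Pde2a, a phosphodiesterase that cGMP stimulates, was the only one that rose, with 5.52 FPKM in Acly-/- adipocytes and 1.72 FPKM in Aclyf/f adipocytes (1.26, 2.11e-07). Pde4d averaged 1.17 FPKM in Acly-/- adipocytes and 2.49 FPKM in Aclyf/f adipocytes (-0.69, 1.90e-05), and Pde3a was below the filter.

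On the droplet coat list 7 of 9 genes were tested, with 4 lower, 0 higher and 3 not called in Acly-/- adipocytes (median log2 fold change -0.18). Plin1, the coat protein that holds ABHD5 in the basal state, averaged 98.4 FPKM in Acly-/- adipocytes and 196 FPKM in Aclyf/f adipocytes (-0.98, limma adjusted p = 8.07e-05). Cidec, which enlarges droplets, averaged 181 FPKM in Acly-/- adipocytes and 448 FPKM in Aclyf/f adipocytes (-1.31, 2.66e-07). Hilpda, another inhibitor of adipose triglyceride lipase, averaged 8.09 FPKM in Acly-/- adipocytes and 10.4 FPKM in Aclyf/f adipocytes (-0.33, 0.0125). Plin3, a coat protein of many cell types, was lower by little (-0.18, 0.0446). Without Aclyf/f adipocyte library 1 both Hilpda (0.0568) and Plin3 (0.167) lost their calls, which left 2 genes lower in place of 4. Plin3 also lost its call after quantile normalization (0.147), after median-of-ratios rescaling (0.0550) and without Acly-/- adipocyte library 1 (0.0831), 2 (0.103) or 3 (0.0801).

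Of 15 other neutral lipid hydrolases 10 passed the filter, Ces1d through the 3 Aclyf/f adipocyte libraries alone. Of the other 9, 3 were higher, 2 lower and 4 not called in Acly-/- adipocytes (median log2 fold change 0.00149). Pnpla3, the closest relative of Pnpla2, had 1.16, 1.28 and 1.47 FPKM in Acly-/- adipocytes, against 19.9, 21.4 and 19.5 FPKM in Aclyf/f adipocytes (-3.21, limma adjusted p = 1.16e-11). The carboxylesterase Ces1d averaged 0.239 FPKM in Acly-/- adipocytes and 3.55 FPKM in Aclyf/f adipocytes, with no test read for it. Abhd12 averaged 73.5 FPKM in Acly-/- adipocytes and 48.4 FPKM in Aclyf/f adipocytes (0.59, limma adjusted p = 4.07e-05). The monoacylglycerol hydrolase Abhd6 did not pass in adipocytes (-0.23, 0.0507) and was higher in Acly-/- preadipocytes (0.73, 2.98e-05), with 2.94 FPKM there and 1.37 FPKM in Aclyf/f preadipocytes.

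Among 10 genes that handle the products, glycerol and fatty acids, 6 were tested, with 4 lower, 0 higher and 2 not called in Acly-/- adipocytes (median log2 fold change -0.79). The 4 were Gk5 (-1.25, limma adjusted p = 2.00e-06), the fatty acid binding proteins Fabp5 (-1.22, 1.84e-06) and Fabp4 (-0.54, 0.000380) and the acyl-CoA synthetase Acsl1 (-1.04, 7.27e-08). Glycerol kinase, Gk, averaged 2.33 FPKM in Acly-/- adipocytes and 3.12 FPKM in Aclyf/f adipocytes (-0.31, 0.0503). The water channel Aqp1, unlike Aqp7, was near 0.2 FPKM in adipocytes of both genotypes but averaged 10.4 FPKM in Acly-/- preadipocytes and 0.959 FPKM in Aclyf/f preadipocytes (2.54, 1.05e-08).

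**Figure D5:**
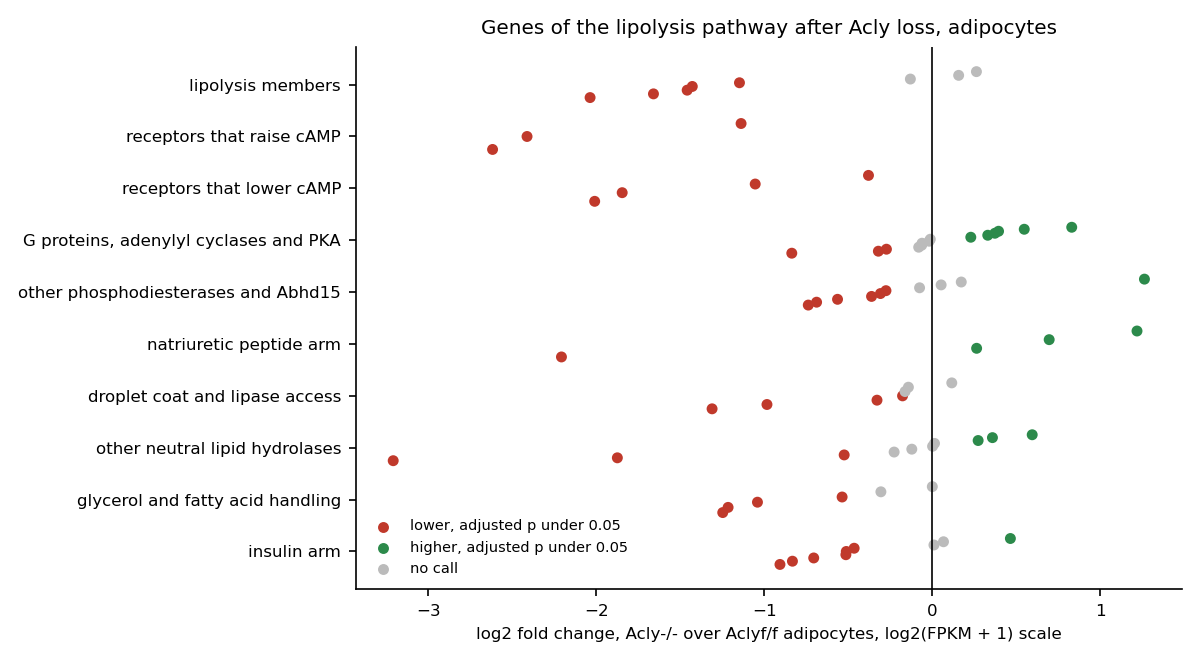
Log2 fold change with Acly loss in adipocytes (Acly-/- over Aclyf/f, log2(FPKM + 1) scale) for each tested gene of the lipolysis gene lists, with 1 point per gene, red where lower, green where higher and grey where not called. Mc5r, Ffar2 and Ces1d are plotted although they passed the filter through Aclyf/f adipocytes alone, and the list of G proteins, adenylyl cyclases and protein kinase A has genes on both sides of 0 and a median of -0.02.

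The 3 genes closest to each member were found by the mean absolute difference between 4 centred group means of log2(FPKM + 1), a description over 4 points. Pnpla2 and Lipe shared Pcx, pyruvate carboxylase, at 0.24 for Pnpla2 and 0.18 for Lipe. Pcx averaged 225 FPKM in Acly-/- adipocytes, 640 FPKM in Aclyf/f adipocytes, 17.2 FPKM in Acly-/- preadipocytes and 13.3 FPKM in Aclyf/f preadipocytes. The closest to Pnpla2 was Aldh1a7 (0.11), and Lipe also lay near Sort1 (0.22). G0s2 lay closest to the droplet genes Cidec (0.42) and Plin1 (0.50) and to the fatty acid transporter Cd36 (0.63), larger distances than those of the other members. Mgll and Adrb3 shared Emc9 (0.04 for Mgll, 0.08 for Adrb3), Pde3b lay closest to Fam195a (0.05), Abhd5 to Nr1d1 (0.04) and Aqp7 to Naaa (0.03). These distances depend on level, since the added 1 FPKM flattens the changes of low genes. In Aclyf/f cells Mgll averaged 0.0244 FPKM in preadipocytes and 7.10 FPKM in adipocytes, while Emc9 averaged 4.25 FPKM and 37.4 FPKM. Distances of high and low members cannot be ranked on this scale.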

How the data were processed

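Per the labels' protocols, Trizol RNA went into Illumina TruSeq libraries. Tools listed in the submitters' processing notes, without their roles, are Cufflinks 2.2.1, Bowtie2 2.2.6 and bcl2fastq, with build mm10. The deposited values are FPKM, per the file headers, for 24341 genes in 12 libraries, with a floor of 0.01. Annotation, filters and strand handling are not stated.

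Here, log2(FPKM + 1) of the 11777 genes that reached 1 FPKM in 3 or more libraries entered a limma fit (3.58.1, R 4.3.3) of 4 group means with a mean trend in the variance. Benjamini-Hochberg adjustment ran over these genes in each of 5 contrasts. On the log2(FPKM + 1) scale, changes of low genes are understated. Folds are ratios of mean FPKM. Fragments were estimated from steps of values under 0.3 FPKM in single-transcript genes of at least 3000 bases (GENCODE M21), a method tested on simulated data, as was the fit. Ratios of FPKM were compared by exact permutation (Python 3.11.15, scipy 1.17.1).

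The members, lists and named genes were chosen with earlier results of these data known. All 8 members are named. Of each list, 23 genes chosen for their role are named where tested, with the 3 called genes of largest absolute change in a contrast where space allowed. Some genes that this rule names are not reported here. Gk was found under the symbol Gyk, an older name in RefSeq. Alternatives were other pseudocounts (0.1 and 0.5), no filter, 3 rescalings, only the groups of a contrast, no variance trend, a replicate block and each library left out.

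Whether replicate numbers pair libraries was checked from the correlation of deviations from group means, which was -0.414 to 0.147 over 18 same-numbered pairs. All 3 pairs exceeded 0.1 only between Acly-/- adipocytes and Acly-/- preadipocytes (0.123, 0.147 and 0.124).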

Additional observations from a re-analysis of the deposited data

Results flagged for a closer look

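For 5 of the 8 genes the effect of Acly loss differed between day 4 adipocytes and day 0 preadipocytes by limma's test of the difference itself. All 5 were negative, beside 26.4% of all genes tested. Mgll and Adrb3 entered the test through adipocyte libraries alone, so nothing is read from this count. The effect in adipocytes minus that in preadipocytes was -1.73 on the log2 scale for Pnpla2, -2.18 for Lipe, -1.68 for Mgll, -1.68 for Adrb3 and -1.50 for Pde3b. In each case the gene was lower in Acly-/- adipocytes, and its fitted value in Acly-/- preadipocytes was above that in Aclyf/f preadipocytes, past the threshold only for Pnpla2 and Pde3b and, for Adrb3, with a sign that changed under 3 alternatives. For Mgll and Adrb3 the preadipocyte levels were near the limit of detection.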

How the results depend on the processing

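Under all alternatives run, 5 members were called lower for Acly loss in adipocytes, beside 29.2% of all genes tested in the main fit. Abhd5 was called higher in addition after quantile normalization and without Acly-/- adipocyte library 2. For differentiation the count was 8 in each genotype, beside 30.4% of all genes higher in Acly-/- cells and 36.5% in Aclyf/f cells. For the interaction it was 5, all lower, beside 26.4%. As above, nothing is read from the counts for differentiation and the interaction. In preadipocytes 3 members were called, 5 with log2(FPKM + 0.1) or log2(FPKM + 0.5), 1 after rescaling to the same FPKM sum, 1 with only the groups of the contrast, and 1 to 4 with 1 library left out, the lowest without Aclyf/f library 1. The cause was not tested. Of 888 gene values over 40 results, 853 kept direction and side of the threshold, 14 lost and 13 gained a call, and 8 changed sign, none of them called. These were Adrb3 in preadipocytes (-0.00955 after quantile normalization, and -0.0345 to 0.0624 with 1 library left out) and the Abhd5 interaction (0.0206 after quantile normalization, and -0.0553 to 0.0295 with 1 library left out). The log2 difference in the G0s2 to Pnpla2 ratio between preadipocyte groups was 0.22, -0.0358 with 1 FPKM added to both genes and -0.00813 to 0.496 with 1 library left out. That in the Lipe to Pnpla2 ratio across Aclyf/f differentiation was 0.02, -0.397 with 1 FPKM added and -0.0296 to 0.0585 with 1 library left out. With the replicate block the counts of members stayed at 5, 3, 8, 8 and 5, and 6125, 4573, 6954, 8352 and 5516 of all genes were called. In the 6 Acly-/- libraries alone, same-numbered libraries deviated together weakly (correlations of 0.123 to 0.147), and whether they are paired is not stated. The block there, an alternative chosen after seeing the data, gave 8 members and 7010 genes, and it changed no member's call. The size of Mgll's rise in Aclyf/f cells depends on the pseudocount, 2.98 as reported and 5.86 with log2(FPKM + 0.1). Depth limits Mgll, Adrb3, G0s2 and Aqp7 in preadipocytes.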

Other observations

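The natriuretic peptide route, which drives lipolysis through cGMP, had 4 of 5 genes tested, too few for a count to be read. In Acly-/- adipocytes 1 was lower, the receptor gene Npr1, and 3 were higher (median log2 fold change 0.48). Of all genes tested, 29.2% were lower and 25.6% higher. In Acly-/- preadipocytes 3 were likewise higher, 0 lower and 1 not called (median 0.47), beside 19.7% of all genes higher and 22.4% lower. Npr1, the guanylyl cyclase receptor for atrial natriuretic peptide, had 1.28, 1.16 and 1.36 FPKM in Acly-/- adipocytes, against 10.3, 9.14 and 8.96 FPKM in Aclyf/f adipocytes (log2 fold change -2.21, limma adjusted p = 1.99e-09). Npr2, the receptor for C-type natriuretic peptide, averaged 9.55 FPKM in Acly-/- adipocytes and 5.49 FPKM in Aclyf/f adipocytes (0.70, 1.74e-05), and the kinase gene Prkg2 averaged 1.73 FPKM in Acly-/- adipocytes and 0.169 FPKM in Aclyf/f adipocytes (1.22, 1.62e-06). The clearance receptor Npr3 (0.26, 0.0487) lost its call without Acly-/- adipocyte library 1 (0.0760) or 2 (0.203), without any 1 of the Aclyf/f adipocyte libraries (0.0693 to 0.107), and without Acly-/- preadipocyte library 1 (0.0580) or Aclyf/f preadipocyte library 2 (0.0594) or 3 (0.0533).

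Of 9 genes in the insulin arm, all tested, 6 were lower, 1 higher and 2 not called in Acly-/- adipocytes (median log2 fold change -0.51). This stands beside 29.2% of all genes lower and 25.6% higher. In Acly-/- preadipocytes 6 were lower, 0 higher and 3 not called (median -0.30), so this list differed between genotypes at both stages. Akt2 averaged 42.7 FPKM in Acly-/- adipocytes and 80.9 FPKM in Aclyf/f adipocytes (-0.91, limma adjusted p = 4.06e-07), and the insulin receptor gene Insr averaged 11.0 FPKM in Acly-/- adipocytes and 20.3 FPKM in Aclyf/f adipocytes (-0.83, 6.85e-07). Akt1 went the other way, with 44.6 FPKM in Acly-/- adipocytes and 32.1 FPKM in Aclyf/f adipocytes (0.46, 0.000674).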
